A study of Mus musculus with 11 samples.

Results

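Nuclei of Lamp5 Adarb2 inhibitory interneurons without Vip were examined in single-nucleus RNA sequencing of mouse brain cortex from 11 mice, with 1 library per mouse. A nucleus was counted when it held 300 to 8000 genes and at most 5% of its unique molecular identifiers (UMIs, each marking 1 captured RNA molecule) in mitochondrial genes, 2 or more UMIs of Gad1 and Gad2 together, at most 1 of Slc17a7, 5 or more of Adarb2, 1 or more of Lamp5, none of Vip, and at most 1 detected gene among Cpa6, Lgr5, Lgr6 and Frmd7. The gate found 1028 nuclei among 114118 barcodes, of which 112539 passed the filters on genes and mitochondrial UMIs and 20590 of these were inhibitory by Gad1, Gad2 and Slc17a7. Each mouse gave 55 to 123 gated nuclei, and their summed counts reached 509344 to 1153760 UMIs per mouse.

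The mice fell into 4 groups. Non-transgenic mice (ikbkb+/+, n = 4) gave 348 gated nuclei. P301S mice (ikbkb+/+;P301S+, n = 3) carry human tau with the P301S mutation under a prion promoter and gave 316. Knockout P301S mice (ikbkb-/-;P301S+, n = 2) also lack Ikbkb, the gene of the kinase IKKb upstream of NF-kB, in cells that express Cx3cr1, and gave 165. Active IKKb P301S mice (ikbkbCA;P301S+, n = 2) express a constitutively active form of that kinase in the same cells and gave 199. Both manipulations used a tamoxifen-inducible Cre inserted at 1 allele of Cx3cr1, which is expressed by microglia and not by neurons, and all mice received tamoxifen. The non-transgenic and P301S mice carried no Cre, so the Cre insertion and the change of Ikbkb cannot be told apart. The mice were 8.39 to 10.85 months old and labelled female. The knockout mice came from the floxed Ikbkb line and the active IKKb mice from the active IKKb line, whereas the non-transgenic and P301S groups mixed both lines. Some mice of different groups share both line and age, namely non-transgenic and active IKKb P301S mice at 10.85 and at 9.8 months, non-transgenic and P301S mice at 10.03 months, and P301S and knockout P301S mice at 9.15 months. The labels do not say whether these were littermates or whether a replicate is more than another mouse. The comparisons below share mice: P301S mice served both as the test group against non-transgenic mice and as the control of the knockout and active IKKb groups.

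Lamp5 interneurons are cortical GABA-releasing neurons that include the neurogliaform cells, many of which lie in layer 1. Neurogliaform cells release GABA diffusely from dense axons, act slowly on many neighbours through GABA-A and GABA-B receptors, and are known for expressing Ndnf, Reln and Npy. Most arise from the caudal ganglionic eminence, as Vip interneurons do, and express Adarb2, whereas Sst and Pvalb interneurons arise from the medial ganglionic eminence under the transcription factor Lhx6.

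The gate was checked against genes that the rule did not use. Of 19 measured genes of a Lamp5 identity list, 13 were higher in the gated nuclei than in each of the Vip, Sst and Pvalb nuclei of the same libraries, when the nuclei of all mice were summed. Those comparison nuclei met the same limits on genes, mitochondrial UMIs, Gad1, Gad2 and Slc17a7, with 322 nuclei or more in each class. Vip nuclei held 5 or more UMIs of Adarb2, none of Lamp5 and 2 or more of Vip, and also met the Cpa6, Lgr5, Lgr6 and Frmd7 limit. Sst nuclei held under 5 UMIs of Adarb2 and 5 or more of Sst. Pvalb nuclei held under 5 UMIs of Adarb2, under 5 of Sst and 2 or more of Pvalb. Levels in this paragraph are UMIs of the gene per 1000000 UMIs summed (CPM) and are a description, because the gate itself separates the nuclei. Ndnf, a secreted protein that marks layer 1 neurogliaform cells, stood at 84.1 CPM in gated nuclei and at 1.38, 4.10 and 0.441 CPM in Vip, Sst and Pvalb nuclei. Sv2c, a synaptic vesicle protein, stood at 416 CPM against 10.8, 21.7 and 9.26. Reln, the secreted glycoprotein reelin, stood at 952 CPM against 87.7, 881 and 61.3, so it separated gated nuclei from Vip and Pvalb nuclei but little from Sst nuclei. The other classes' own genes were low in the gated nuclei: Sst reached 3.1 CPM against 777 in Sst nuclei, Pvalb 0.750 against 175 in Pvalb nuclei, and Lhx6 6.85 against 97.4 and 76.3. The Sst and Pvalb nuclei were themselves chosen on Sst and Pvalb UMIs, so their high levels of these genes were fixed in advance. Prox1, a transcription factor of the caudal lineage, stood at 78.5 CPM, below the 303 CPM of Vip nuclei.

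The levels held in every library for some of these genes and not for others. Ndnf ran from 51.6 to 137 CPM over the 11 libraries of gated nuclei (median 82.3), and its highest library was 4.85 CPM in Vip, 19.1 in Sst and 11.6 in Pvalb nuclei. Sv2c ran from 324 to 473 CPM (median 413), and its highest library in the other classes was 51.3 CPM. Fgf13, a modulator of sodium channels, ran from 1368 to 2766 CPM (median 1730), against at most 759 CPM in a library of the other classes. For Npy, the neuropeptide Y precursor, the ranges overlapped, with 34.96 to 122 CPM in gated nuclei and 66.1 to 162 CPM in Sst nuclei. Kit, a receptor tyrosine kinase, likewise ran from 205 to 389 CPM in gated nuclei and from 130 to 358 CPM in Vip nuclei.

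**Figure D1:**
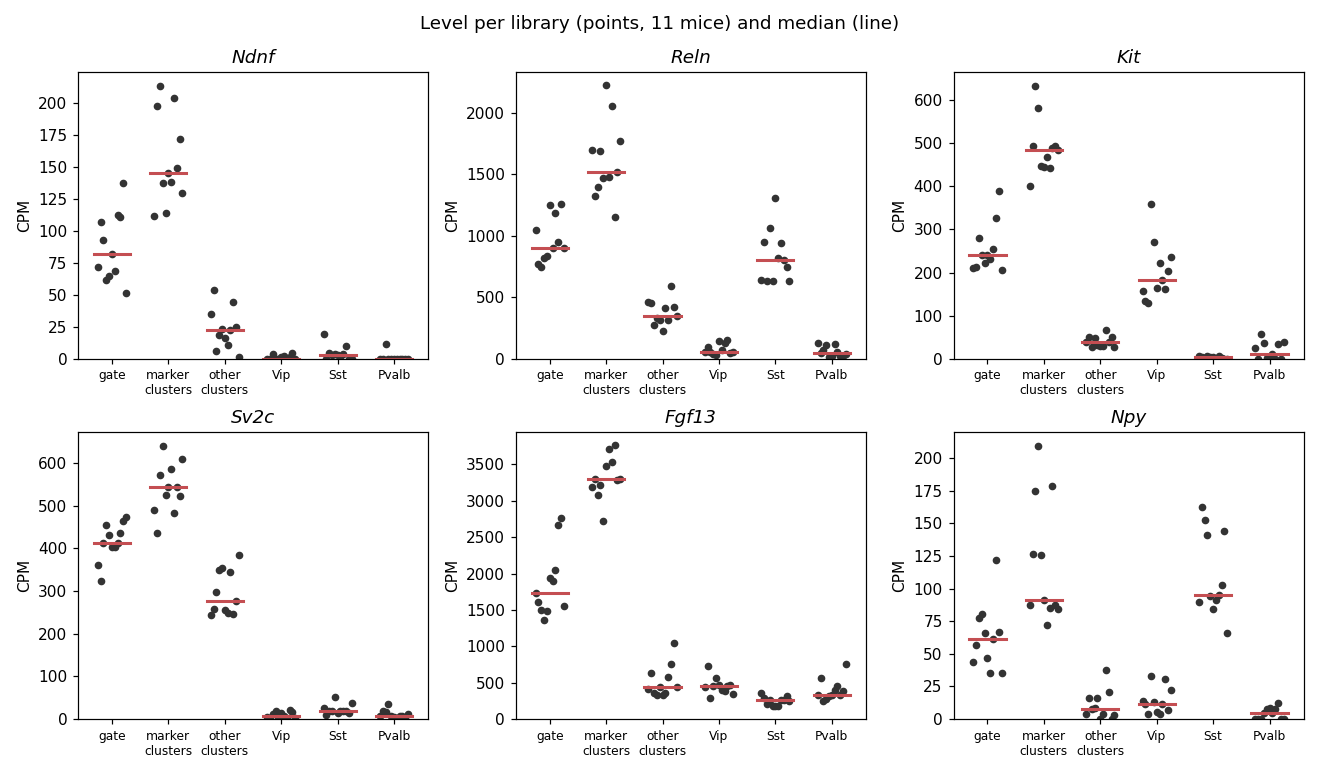
Levels in CPM of Ndnf, Reln, Kit, Sv2c, Fgf13 and Npy, with 1 point per library and a line at the median, in all gated nuclei, in those of the marker clusters, in those of the other clusters, and in Vip, Sst and Pvalb nuclei. The median of Fgf13 is 3297 CPM in the marker clusters and 438 in the other clusters, with the whole gate between them at 1730.

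The same genes were then read in single nuclei. Thinned to 3000 UMIs, which leaves out 4 gated nuclei that are shallower, 15.6% of gated nuclei held an Ndnf UMI, against 0.385% of Vip, 1.59% of Sst and 0% of Pvalb nuclei. Without thinning the shares were 25%, 0.951%, 3.69% and 0.311%, at median depths of 9532.5, 7486.5, 11042 and 13711.5 UMIs. Fgf13 was detected in 71.5% and Kit in 38.5% of thinned gated nuclei. These genes set the gate less apart, since Fgf13 was detected in 57.6% of thinned Vip, 41.5% of Sst and 55.1% of Pvalb nuclei. Kit was detected in 35.8% of thinned Vip nuclei, near its share in the gate, and in 1.06% of Sst and 3.12% of Pvalb nuclei. Lamp5 itself rested on exactly 1 UMI in 715 of the 1028 nuclei (69.6%) and never exceeded 7, while Adarb2, which encodes an RNA-binding protein of the adenosine deaminase family, ran from 5 to 667 UMIs with a median of 37.

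Clustering of the gated nuclei gave 11 clusters. In 5 of them, at least 5 genes of the Lamp5 identity list were raised over the level of all inhibitory nuclei, with fewer than 3 oligodendrocyte genes raised. These are called marker clusters here, by a rule set after the clusters were seen, and they held 560 nuclei, or 54.5% of the gate. The other 6 clusters held 468 nuclei. In the marker clusters, Fgf13 was detected in 97.8%, Kit in 65.3%, Reln in 65.5% and Ndnf in 26.3% of nuclei thinned to 3000 UMIs. Reln was detected in 59.3% of thinned Sst nuclei, 12.3% of Vip and 14.3% of Pvalb nuclei. The marker clusters made up 44.6% to 80.0% of the gate in single libraries, and both extremes fell in mice of different groups, an active IKKb P301S mouse and a non-transgenic mouse.

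Of the marker clusters, the one with the most nuclei (216) had a median of 74 Adarb2 UMIs and was led by Npy (211 CPM), Ltbp2, a matrix protein that binds latent TGF-beta complexes, and Pde11a, a cyclic nucleotide phosphodiesterase (1470 CPM). Its Ndnf level was low at 31.3 CPM. A cluster of 136 nuclei was led by Dkk2, a Wnt antagonist, and held 251 CPM of Ndnf and 2137 CPM of Reln. A cluster of 114 nuclei was led by Rxfp1, the relaxin receptor, and had the highest Ndnf and Reln levels, at 404 and 3558 CPM, with 87.7% of its nuclei holding an Ndnf UMI and 99.1% a Reln UMI. Npy and Ndnf therefore peaked in different clusters of the gate. A cluster of 52 nuclei, with a median of 156.5 Adarb2 UMIs, was led by the transcription factors Npas3 (5163 CPM) and Npas1 (91.2 CPM) and by Egln3, a prolyl hydroxylase (67.4 CPM).

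The smallest marker cluster, 42 nuclei with no Ndnf UMI, was led by Cntnap4, a synaptic adhesion protein (1066 CPM against 56.5 in the other gated nuclei), Mctp2, Tacr1, the substance P receptor (210 CPM), and Lhx6 (109 CPM). Lhx6 was detected in 64.3% of these nuclei and in at most 12.5% of any other cluster. Nkx2-1, the medial lineage factor, was detected in 21.4% of them at 24.7 CPM, and Nos1, neuronal nitric oxide synthase, stood at 239 CPM. Hapln1, a link protein of the perineuronal matrix, was also highest there at 173 CPM, and Pde11a stood at 1397 CPM. These levels come from nuclei clustered on the same genes and are a description.

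**Figure D2:**
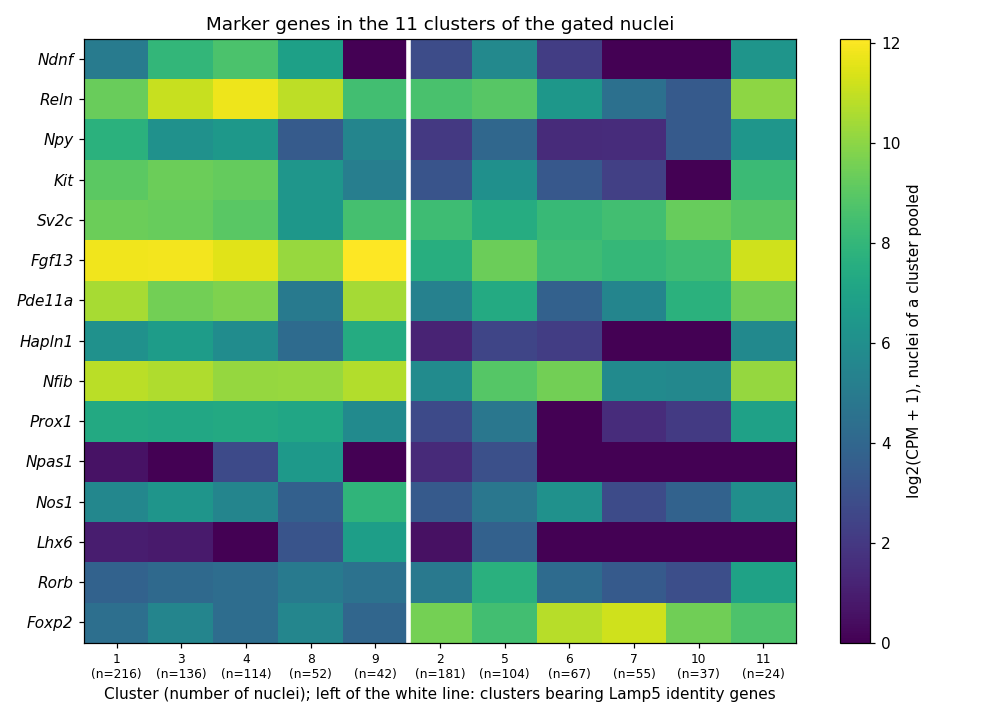
Heat map of the level, as log2(CPM + 1), of 15 genes in the 11 clusters of gated nuclei, with the 5 marker clusters to the left of the white line. Ndnf and Reln are highest in the cluster led by Rxfp1, Npy in the cluster of 216 nuclei and Lhx6 in the cluster of 42 nuclei, and Foxp2 reaches 2373 CPM in a cluster to the right of the line.

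The other clusters met the same gate with few identity genes. The identity genes raised in them numbered 0 to 3, except in a cluster of 24 nuclei where 11 were raised together with 7 oligodendrocyte genes. That cluster was led by Prr5l and St18, included the myelin gene Mbp, and 91.7% of its nuclei were marked as doublets (2 nuclei read as 1). A cluster of 104 nuclei was led by Fam19a1, a secreted neurokine, and Rorb (203 CPM), a nuclear receptor of cortical excitatory neurons, and 45.2% of it was marked as doublets. The remaining 4 held 181, 67, 55 and 37 nuclei with median Adarb2 counts of 8, 11, 28 and 10, and were led by Ebf1, Chst9, Sema5b and Gm28928. Foxp2, a transcription factor of striatal neurons and of deep-layer cortical neurons, stood at 755, 1793, 2373 and 698 CPM in those 4 clusters and at 14.8 to 45.6 CPM in the marker clusters. Over all other clusters, Foxp2 stood at 866 CPM against 27.8 in the marker clusters, Meis2 at 1441 against 36.3 and Ebf1 at 169 against 1.79. Of the identity list, Sv2c stood in the other clusters at 245 to 385 CPM over the libraries. Reln, which separates the gate little from Sst nuclei, stood at 229 to 592 CPM. Ndnf and Kit were low there, at 1.70 to 53.6 and 27.1 to 66.7 CPM. Fgf13 ran from 333 to 1048 CPM, which overlaps the 293 to 726 CPM of Vip nuclei. In the 3 marker clusters of 216, 136 and 114 nuclei, 11 or 12 identity genes were raised. The marker clusters were chosen by this count, so it describes them and is no separate test of the label. In the marker clusters of 52 and 42 nuclei 5 and 7 were raised, with 1 and 0 among the 10 leading genes, and the cluster of 52 nuclei also had 9 genes of the caudal lineage and 5 of Vip and Sncg interneurons raised. The whole set is therefore called gated nuclei, and the other clusters are given no cell type here. In the cluster led by Gm28928, 43.2% of the nuclei came from 1 active IKKb P301S mouse (replicate 2).

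Nuclei next to the thresholds of the gate showed the same. The 57 nuclei with exactly 5 Adarb2 UMIs had no Ndnf and 225 CPM of Fgf13, close to the 66 nuclei with 4 that were left out (no Ndnf, 206 CPM). The 715 nuclei with exactly 1 Lamp5 UMI had 65.0 CPM of Ndnf and 193 CPM of Kit, and the 4410 nuclei with none had 23.8 and 59.0 CPM. The 19 nuclei with exactly 1 Vip UMI had 28.1 CPM of Ndnf. A stricter gate, with 10 or more UMIs of Adarb2 and 2 or more of Lamp5, kept 282 nuclei, 30 or more UMIs of Adarb2 kept 581, and leaving out doublets kept 917. Results are given for the whole gate, and for the genes described most closely also for the marker clusters.

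A wider set of genes set the nuclei apart from the other inhibitory classes. Of 6099 genes outside the gate's own rule with at least 20 CPM, 235 (3.85%) were higher in the gated nuclei than in the highest of the Vip, Sst and Pvalb nuclei in 11 of 11 mice. In the marker clusters 257 of 6027 (4.26%) were. Sv2c led in both, with a mean log2 ratio of 3.88 ± 0.45 (SD, n = 11 mice) in the gate and 4.26 in the marker clusters. Ndnf followed at 3.22 and 4.04. Foxp2 (3.14) was next in the gate, before Pde11a, which hydrolyses cAMP and cGMP (2.97 in the gate and 3.88 in the marker clusters), and Ebf1 (2.72). Foxp2 and Ebf1 were the genes high in the other clusters, and Foxp2 stood higher still, at 704 CPM, in the 4410 Adarb2 nuclei without Lamp5 than in the gate (470 CPM). Further genes of the marker clusters were Col14a1, a fibril-associated collagen (84.0 CPM), Crispld1 (229 CPM), Ltbp2 (44.9 CPM) and Itgbl1 (119 CPM). Gabra5, the GABA-A receptor subunit of extrasynaptic receptors, stood at 137 CPM in the marker clusters and at 13.4 to 19.4 CPM in the other classes. Nyap2, an adaptor of PI3 kinase signalling, stood at 1633 CPM against 79.3 to 286, and Trpc5, a receptor-operated cation channel, at 534 CPM.

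Library depth and labels were checked once for all nuclei. Libraries held 72007219 to 93205362 UMIs, and 1556 of 110968 distinct barcodes among the kept nuclei occurred in more than 1 library, 1 of them gated. Median UMIs per gated nucleus were 10153 to 12759 in the knockout and active IKKb mice and 8270 to 9489.5 in the others. Doublet calls marked 111 of the gated nuclei (10.8%), unevenly over the groups. They marked 8, 4, 3 and 11 of the 94, 105, 55 and 94 gated nuclei of the non-transgenic mice. In the P301S mice they marked 13, 15 and 22 of 106, 87 and 123. The knockout P301S mice had 5 and 6 marked of 86 and 79, and the active IKKb P301S mice 13 and 11 of 101 and 98. The mouse prion genes whose sequence flanks the human tau transgene gave 66 to 84 UMIs per non-transgenic library and 168 to 272 per library of the P301S groups. Ikbkb stood at 43.0 to 54.5 CPM in every library, the knockout libraries included (48.6 and 49.0), which does not check a deletion in rare cells.

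The first question was whether the number of gated nuclei differed between groups. Among inhibitory nuclei, gated nuclei made up 5.10%, 5.90%, 4.84% and 4.56% in the non-transgenic mice, 5.15%, 3.58% and 5.76% in the P301S mice, 4.86% and 5.44% in the knockout P301S mice and 4.71% and 5.51% in the active IKKb P301S mice. All groups overlapped. The means were 5.10 ± 0.58% (SD, n = 4), 4.83 ± 1.12% (n = 3), 5.15 ± 0.41% (n = 2) and 5.11 ± 0.57% (n = 2). In two-sided exact permutation tests over mice, P301S against non-transgenic mice gave p = 0.743, knockout P301S against P301S p = 0.9, active IKKb P301S against P301S p = 0.9 and all 7 P301S mice against non-transgenic mice p = 0.830, each with an adjusted p of 0.9 over the 4 comparisons. The smallest p these designs allow are 0.0286, 0.1, 0.1 and 0.00303 in that order. The knockout and active IKKb comparisons therefore cannot reach 0.05 at any difference. After adjustment over the 4 comparisons, P301S against non-transgenic mice cannot reach it either.

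Within the marker clusters alone, the share of inhibitory nuclei was 3.21 ± 0.90% in the non-transgenic mice and 2.58 ± 0.49% (SD, n = 7) in all P301S mice. The difference of -0.63 percentage points had an exact permutation p of 0.161 (adjusted 0.571). The non-transgenic mice alone spread from 2.09% to 3.99%, which spans the mean of the P301S mice. Nuclei are sampled by sorting and capture, so these shares do not count cells in the tissue.

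**Figure D3:**
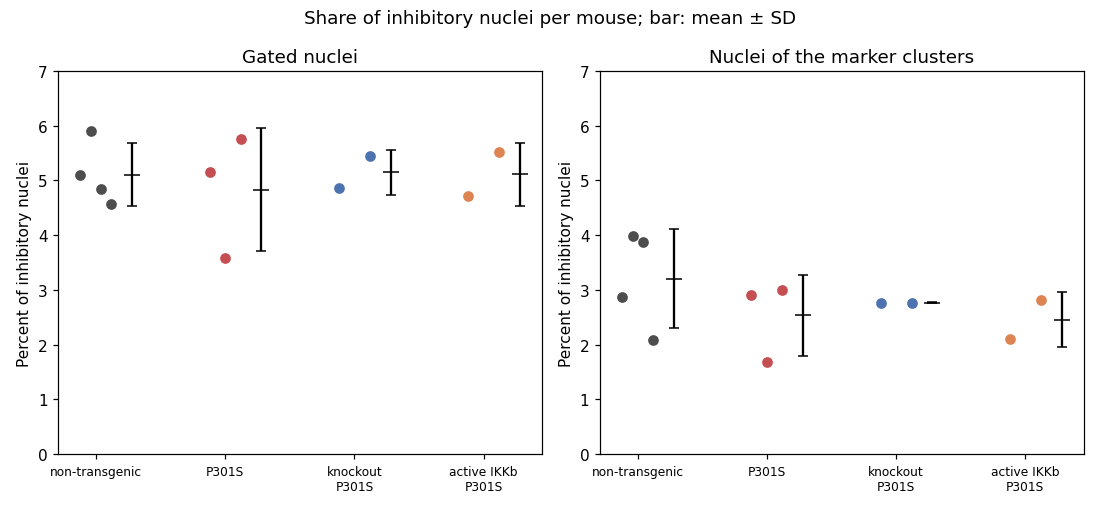
Percent of inhibitory nuclei that fell in the gate (left) and in the marker clusters (right), with 1 point per mouse and bars at the group mean ± SD. The groups overlap in both panels, between 3.58% and 5.90% for the gate.

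Gene expression was then compared over the sums of gated nuclei per mouse, with edgeR's quasi-likelihood test on 9548 genes and a gene was called where its p, adjusted after Benjamini and Hochberg, was under 0.05 and its log2 fold change over 0.1 in size. In P301S against non-transgenic mice 2 genes were called (0.0209% of those tested), and in all P301S mice against non-transgenic mice the same 2 (0.0209%). They were Unc5c, the netrin receptor that mediates repulsion of growing axons and migrating neurons, which fell, and Gm43049, a long non-coding RNA, which rose. No gene was called for knockout P301S or active IKKb P301S against P301S mice (0.0% each), where an unadjusted p under 0.05 was seen for 490 and 408 genes (5.13% and 4.27%), close to the 5.04% of the P301S comparison. By DESeq2, 2, 0, 0 and 2 genes were called in the P301S, knockout, active IKKb and all P301S comparisons, respectively.

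Unc5c stood at 1573, 2303, 2224 and 1237 CPM in the gated nuclei of the 4 non-transgenic mice. It stood at 804, 859 and 854 CPM in the P301S mice, 838 and 670 CPM in the knockout P301S mice and 869 and 723 CPM in the active IKKb P301S mice. Every non-transgenic mouse lay above every mouse of the P301S groups, a separation that 0.681% of the tested genes showed over all P301S mice and 5.48% against P301S mice alone. The log2 fold change was -1.25 (SE 0.148, adjusted p = 9.56e-04) over all P301S mice and -1.17 (SE 0.188, adjusted p = 0.0328) in P301S mice alone. Over all P301S mice the call held without any 1 mouse (adjusted p from 7.62e-06 to 0.0129). In P301S mice alone it was lost without any 1 of non-transgenic replicates 1, 2 and 3 or of the 3 P301S replicates, with age as a covariate (adjusted p = 0.107) with the breeding line as a covariate (0.0515) or with the stricter gate (0.430). Without non-transgenic replicate 4, which had the lowest level of its group, 15 genes were called over all P301S mice in place of 2. No difference of knockout P301S or active IKKb P301S from P301S mice was called, and these 2 groups were not compared with each other.

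The difference was also present within the nuclei that carry the Lamp5 markers. Among marker cluster nuclei, non-transgenic mice held 2755, 3296, 2764 and 2468 CPM of Unc5c, against 1292, 1452 and 1528 in the P301S mice, 1335 and 1192 in the knockout P301S mice and 1800 and 1149 in the active IKKb P301S mice. The groups again did not overlap, as for 0.669% of the genes tested there over all P301S mice and 4.99% against P301S mice alone. Unc5c was the only call among 7030 genes (0.0142%), with a log2 fold change of -1.06 (SE 0.112, adjusted p = 2.81e-06) over all P301S mice and -1.02 (SE 0.142, adjusted p = 6.73e-04) in P301S mice alone. It stayed called in all 11 fits without 1 mouse over all P301S mice (log2 fold change -1.18 to -0.96, adjusted p from 2.02e-07 to 5.64e-05) and in all 7 such fits for P301S mice alone (-1.09 to -0.93, adjusted p from 3.74e-04 to 0.0239). At an unadjusted p under 0.05 stood 4.4% of genes in the P301S, 4.64% in the knockout and 5.09% in the active IKKb comparison of the marker clusters, where the knockout and active IKKb comparisons called no gene. In the other clusters the level was lower, at 402 to 557 CPM in non-transgenic and 227 to 514 CPM in all P301S mice, with a log2 fold change of -0.50 and an adjusted p of 0.661.

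Among single clusters, the summed Unc5c level of all P301S mice was 0.444, 0.455, 0.590 and 0.518 of the non-transgenic level in the marker clusters of 216, 136, 114 and 42 nuclei. In the marker cluster led by Npas3 it was 1.19 of that level, and in the 6 other clusters it ran from 0.443 to 1.92. These ratios rest on nuclei pooled over mice and carry no test.

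Unc5c had a lower level in other neurons, where its fold change was not tested within each class. Its range was 347 to 508 CPM in the Vip nuclei of non-transgenic mice and 171 to 313 CPM in those of all P301S mice, 563 to 619 against 295 to 524 in Sst nuclei, and 541 to 714 against 389 to 533 CPM in excitatory nuclei. In Pvalb nuclei the ranges overlapped, at 390 to 463 and 175 to 522 CPM. In the 4410 Adarb2 nuclei without Lamp5 and Vip they overlapped slightly, at 563.2 to 962.5 CPM in non-transgenic and 436.3 to 567.9 CPM in all P301S mice. Over all inhibitory nuclei, the gated ones included, they were 495 to 678 against 382 to 471 CPM. The difference in log2 fold change between gated and other nuclei was -0.53 (SE 0.233) against Vip, -0.58 against Sst and -0.48 against Pvalb nuclei. With adjusted p of 1, 0.921 and 1 over all genes tested, the fall was not shown to be larger in gated nuclei than in these classes.

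Gm43049 gave no UMI in the gated nuclei of any of the 4 non-transgenic mice. It gave 11, 12 and 9 UMIs in the P301S mice, 7 and 12 in the knockout P301S mice and 10 and 9 in the active IKKb P301S mice, 70 in all. This is at least 11.05-fold higher in all P301S mice, against a floor of 3 UMIs over the non-transgenic group (0.876 CPM), and at least 12.2-fold in P301S mice alone, with adjusted p of 0.0226 and 0.0328. The call over all P301S mice was lost with age as a covariate (adjusted p = 0.0789), with doublets left out (0.105) and in 6 of the 11 fits without 1 mouse, those without non-transgenic replicate 1 or 2 or any of the knockout and active IKKb P301S mice (0.0512 to 0.114). In P301S mice alone it was lost without any 1 of the non-transgenic or P301S mice, with age or line as a covariate and with doublets left out (0.0515 to 0.187). The marker clusters held 32 of its UMIs, 2 to 7 per P301S mouse, at least 6.38-fold over the same floor, and the gene was too low to be tested there. The non-transgenic mice also had none in Vip, Sst and Pvalb nuclei, where all P301S mice gave 21, 34 and 17 UMIs, and 2 in excitatory nuclei against 858. It was therefore detected with the transgene outside the gate too. Single libraries were sparse, with 2, 0 and 0 UMIs in the Pvalb nuclei of the P301S mice and 4, 2 and 0 in their Vip nuclei. The 2 UMIs in Pvalb nuclei are fewer than the 3 used as a floor, so they show no difference for P301S mice alone there.

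**Figure D4:**
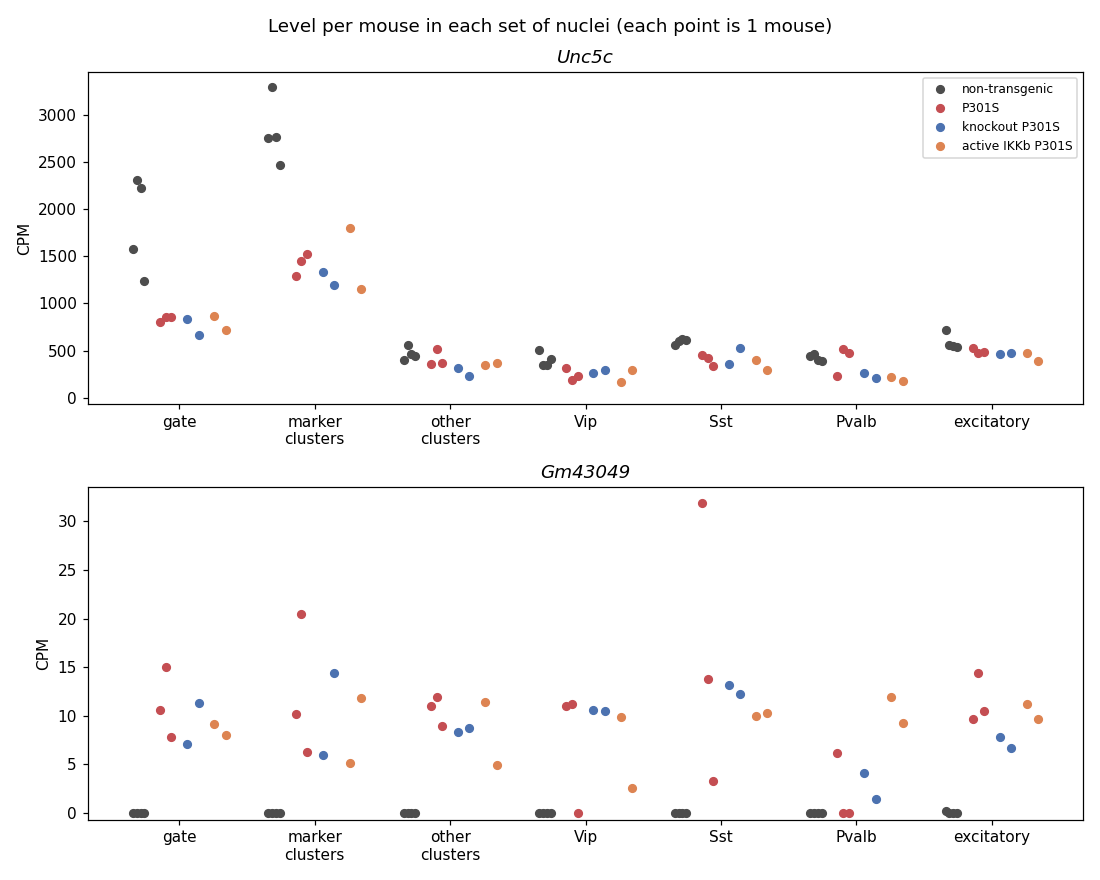
Unc5c (top) and Gm43049 (bottom) in CPM, with 1 point per mouse coloured by group, in gated nuclei, marker clusters, other clusters and Vip, Sst, Pvalb and excitatory nuclei. Unc5c in gated nuclei lies between 1237 and 2303 CPM in non-transgenic mice and between 670 and 869 CPM in all P301S mice, and Gm43049 is at 0 in the non-transgenic mice in all but the excitatory nuclei.

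Both genes lie on chromosome 3. In the GRCm38/mm10 build with GENCODE M21 annotation, Gm43049 occupies chr3:140692038-140760704 on the minus strand and Unc5c chr3:141465216-141834924 on the plus strand, with 704511 bases between them. Of 36 genes annotated from 1000000 bases before Gm43049 to 1000000 bases after Unc5c, 7 were tested in gated nuclei, and the 5 besides these 2 were not called. Their log2 fold changes over all P301S mice were -0.17 for Stpg2, -0.26 for Bmpr1b, -0.33 for Pdlim5, 0.30 for Gtf2b and 0.08 for Pkn2, with a lowest unadjusted p of 0.155. The antisense genes Gm15688 and Gm15689 overlap Unc5c and gave 17 UMIs each in the gated nuclei. Whether the counts were split by strand is not given in the sources used here, so a share of the reads of overlapping genes may be assigned to either.

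The genes that define the cells were examined next, from lists put together with earlier results of these data known. No member of any list was called in any comparison. Of the 15 tested genes of the Lamp5 identity list, 5 had an unadjusted p under 0.05 over all P301S mice, against 6.15% of all genes, with 4 lower and 1 higher. The list's median log2 fold change was -0.27 and that of all genes -0.01. Fgf13 ran from 1616 to 2854 CPM in the non-transgenic and from 1394 to 1969 CPM in all P301S mice after TMM scaling (trimmed mean of M values), with a log2 fold change of -0.50 (adjusted p = 0.589). Ndnf gave -0.47, Cacna2d1, a calcium channel subunit that binds gabapentin, -0.38 and Kit -0.36.

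The values were nearer 0 in the marker clusters, which had themselves been chosen by raised genes of this list, so that they are no independent reading of it. There the list's median was -0.02, and Fgf13 gave -0.13, Ndnf -0.20, Cacna2d1 -0.17 and Kit 0.01. Fam19a1, which leads a cluster of the other nuclei, gave 0.70 in the whole gate and -0.44 in the marker clusters, so its direction depended on which gated nuclei were summed. The marker clusters made up 45.7% to 80.0% of the gate in non-transgenic mice and 44.6% to 57.0% in all P301S mice, values that move with the list. The part of this in the gate's values was not tested beyond the marker clusters' own fit. Reln, the reelin gene, and Npy gave -0.02 and 0.04 in the marker clusters, and Sv2c gave -0.01.

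**Figure D5:**
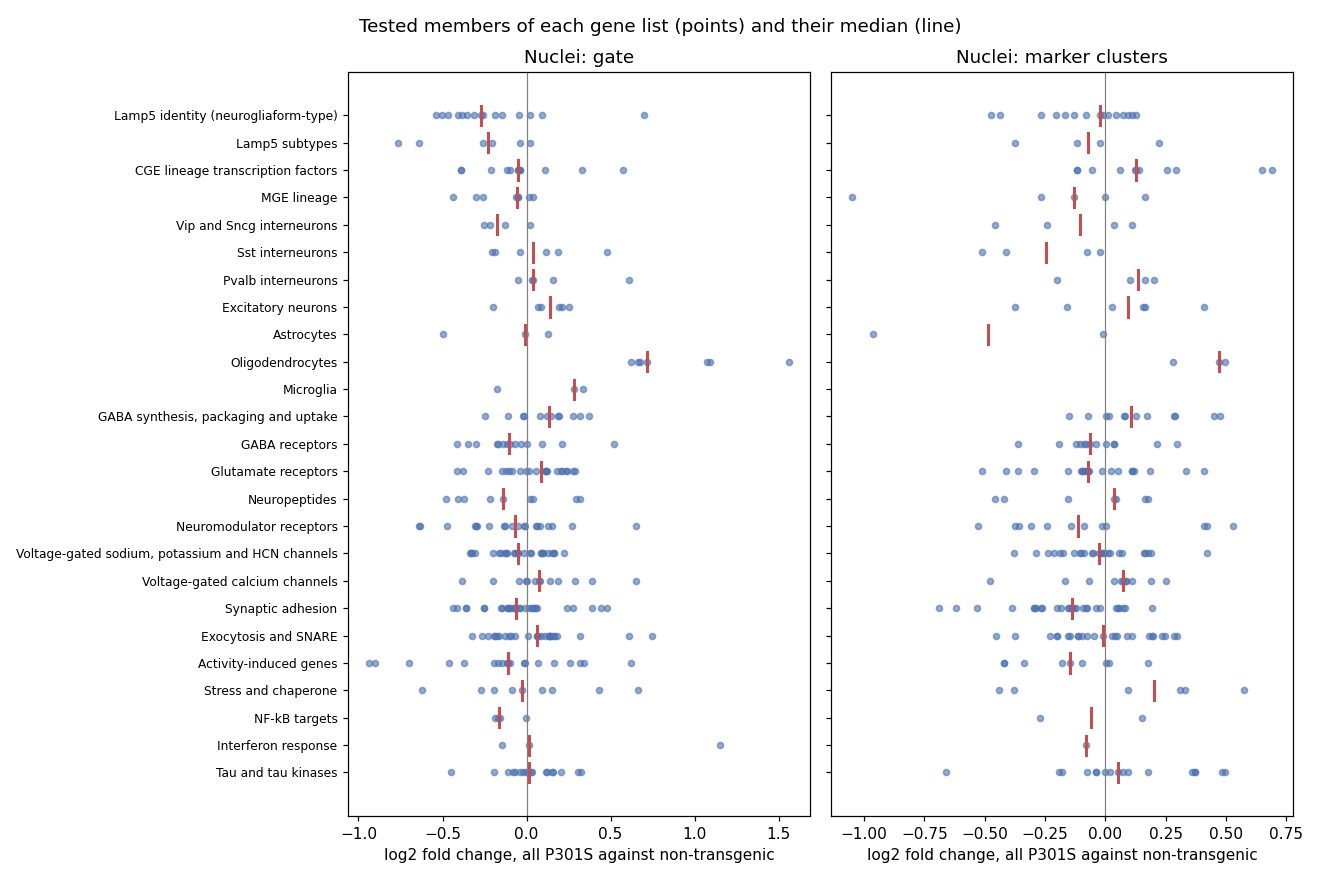
Log2 fold change of all P301S against non-transgenic mice for the tested members of each gene list (points) with the list's median (line), in all gated nuclei and in the marker clusters. The Lamp5 identity list has a median of -0.27 in the gate and -0.02 in the marker clusters, and no point was called.

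Genes of GABA release and reception followed the same pattern of single members at most. All 12 genes of a list of GABA packaging, metabolism and transport, without Gad1 and Gad2 that the gate used, were tested, with 1 of them past an unadjusted p of 0.05, the chloride importer Slc12a2 at 0.37. Of 14 tested GABA receptor genes, 1 was higher (Gabra3, 0.52) and 3 were lower, Gabra4 (-0.30) among them, at an unadjusted p under 0.05, where 6.15% of all tested genes stood. Gabra3, a GABA-A receptor subunit, had a TMM-scaled level of 29.7 to 59.9 CPM in the non-transgenic and 46.6 to 71.0 CPM in all P301S mice. Its groups overlapped, the adjusted p was 0.743, and the log2 fold change was 0.30 in the marker clusters.

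Receptors and channels for other inputs gave similar counts. Of 22 glutamate receptor genes tested, 1 was higher and 2 were lower at an unadjusted p under 0.05, against the same 6.15% of all genes, all 3 of them kainate receptor subunits (Grik4 0.29, Grik1 -0.38 and Grik2 -0.41). Of the marker cluster values, the NMDA receptor subunits Grin2d and Grin3a gave 0.41 and -0.51. Of 26 sodium, potassium and HCN channel genes, 0 were higher and 3 lower, and of 13 calcium channel genes 1 was higher and 1 lower, to be read against that share. Chrna7, the nicotinic receptor subunit found in layer 1 interneurons, was lowest in p among 20 tested neuromodulator receptors, at -0.64 in the gate (adjusted p = 0.589) and -0.38 in the marker clusters (adjusted p = 0.819). Its TMM-scaled level in gated nuclei was 308, 250, 389 and 212 CPM in the non-transgenic mice, 203, 168 and 129 in the P301S mice, 272 and 174 in the knockout P301S mice and 185 and 150 in the active IKKb P301S mice. The groups overlapped through 1 knockout mouse.

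Among 29 synaptic adhesion genes, 2 were higher and 4 lower in the gate at an unadjusted p under 0.05, and in the marker clusters 0 were higher and 7 lower of 28 tested, against 5.95% of all genes there. Erbb4, the neuregulin receptor of cortical interneurons, gave -0.44 in the gate and -0.27 in the marker clusters, with adjusted p of 0.642 and 0.739. Cdh9, Cdh12, Cntnap2, Cntnap4, Il1rapl1 and Lrrtm4 were the others. Of 27 exocytosis genes, 1 was higher and 1 lower at that p in the gate, near the 6.15% of all genes. Of 9 neuropeptide genes, Nxph1, a neurexin ligand, gave -0.48 in the gate and -0.15 in the marker clusters.

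Genes of response to activity, stress and inflammation were few at this depth. Npas4, an activity-dependent transcription factor, was the only 1 of 19 tested activity-induced genes past an unadjusted p of 0.05, at -0.90 (adjusted p = 0.743), a share near the 6.15% of all genes. None of the 9 tested stress and chaperone genes passed it. Of 24 NF-kB target genes 4 reached the count filter and of 26 interferon genes 3, so these responses were largely not detectable in gated nuclei at this depth, and none of those passed an unadjusted p of 0.05 over all P301S mice. Among the interferon genes, Rnf213 gave 2.61 in P301S against non-transgenic mice (adjusted p = 0.929), from 10.3 and 12.4 CPM in 2 of the 3 P301S mice. Mapt, the gene of mouse tau, stood between 378 and 520 CPM in every mouse and gave 0.12, and none of 18 tested genes of tau and its kinases passed an unadjusted p of 0.05 over all P301S mice in the gate. Among 17 such genes tested in the marker clusters Mark2, a microtubule affinity kinase, gave 0.48 and Cdk5, a tau kinase, -0.66 (unadjusted p = 0.00230 and 0.0470, neither called), and Mark4 gave 0.47 in the knockout comparison of the gate (unadjusted p = 0.0426).

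Genes of other cell types were read in the same sums. The 7 oligodendrocyte genes summed to 41.2 to 187 CPM in the gated nuclei of non-transgenic mice and to 123 to 362, 142 to 232 and 221 to 399 CPM in the P301S, knockout P301S and active IKKb P301S mice, and none was at 0. Their median log2 fold change over all P301S mice was 0.72, with 5 of 7 higher at an unadjusted p under 0.05, against 6.15% of all genes, and none called. Their marker cluster sums were 38.5 to 106 CPM in non-transgenic and 68.0 to 123 CPM in all P301S mice. Microglial genes summed to 20.9 to 53.7 and 31.9 to 59.8 CPM, astrocyte genes to 159 to 253 and 137 to 274 CPM, and excitatory genes to 988 to 1474 and 1174 to 1595 CPM. Clusters with raised oligodendrocyte genes had been left out of the marker clusters, and the medians there still ran from 59.0 CPM in the non-transgenic to 76.8, 83.7 and 112 CPM in the P301S, knockout P301S and active IKKb P301S mice. The part of the oligodendrocyte genes in the differences of the gate was not tested.

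The knockout comparison asked whether loss of Ikbkb in microglia altered the gated nuclei of P301S mice. With 2 against 3 mice, no gene was called. The genes with the lowest p included Arhgap15, a Rac GTPase-activating protein (log2 fold change -1.19), Dot1l, a histone H3 methyltransferase (0.69), Sarm1, an NADase of axon degeneration (1.02), and Impdh1, an enzyme of guanine nucleotide synthesis (1.39), all with an adjusted p of 0.937. Arhgap15 stood at 32.1 to 44.6 CPM in the P301S mice and at 14.5 and 19.9 CPM in the knockout P301S mice, which did not overlap, as for 23.3% of all tested genes. Of the other genes with the lowest p, Sorbs2os (-1.07), A330015K06Rik (-0.95), Gm48765 (-1.77), 9530068E07Rik (-1.82) and Gm38505 (-0.80) were lower. Gm42418, which overlaps a ribosomal RNA repeat, stood at 763.6 to 1008 CPM in the P301S and at 1547 and 1672 CPM in the knockout P301S mice (log2 fold change 0.83, adjusted p = 0.937), and gave 0.88 in the marker clusters (adjusted p = 0.397). Its part in the other values was not tested. The Lamp5 identity list had a median of -0.03 with 0 of 15 genes past an unadjusted p of 0.05. In the GABA lists Slc12a5, the neuronal chloride exporter, was the only such gene and was higher, and of 19 tested activity-induced genes Egr1, Egr4 and Rheb stood past that p, which 5.13% of all genes passed. None of these passed the adjusted test.

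The active IKKb comparison asked the opposite question, with 2 mice against the same 3 P301S mice. No gene was called. The lowest p included Tenm2, a teneurin adhesion protein, which stood at 2596 to 2894 CPM in the P301S mice and 1718 to 1747 CPM in the active IKKb P301S mice (log2 fold change -0.65), Mpp7, a scaffold protein (1.12), Pde3a, a cyclic nucleotide phosphodiesterase (-3.25), and Fstl1, a secreted glycoprotein (0.94), all with an adjusted p of 0.998. When 1 mouse was left out, Mpp7 ran from 0.59 to 1.52 and Fstl1 from 0.38 to 1.35. In the marker clusters Tenm2 gave -0.38 and Fstl1 0.41, with groups that overlapped for Fstl1, and Mpp7 was too low to be tested. Pde3a stood there at 0, 28.4 and 30.3 CPM in the P301S mice and at 0 in both active IKKb P301S mice. In the whole gate the value of Pde3a ran from -3.71 to -2.34 when 1 mouse was left out, and its groups overlapped, at 2.57 to 52.7 CPM in the P301S and 2.64 and 2.79 CPM in the active IKKb P301S mice. The groups did not overlap for Tenm2, as for 19.7% of all tested genes. Other genes with the lowest p were Gm48321 (-1.67), Rapgef5 (-0.71), Pcp4l1 (1.004), Car11 (0.83) and Gm16867, which stood at 11.6 to 25.4 CPM in the P301S mice and at 0 in both active IKKb P301S mice. The Lamp5 identity list had a median of -0.06 with 0 of 15 genes past an unadjusted p of 0.05. Of 19 tested activity-induced genes Per1 and Bdnf stood past that threshold, which 4.27% of all genes passed, and neither was called.

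Among genes that were not called in the P301S comparisons, those with the lowest p were given by their values. Over all P301S mice these included Adgrd1, an adhesion receptor (log2 fold change -1.70), Lrmda (1.57), Tmem163, a zinc transporter (1.13), St8sia4, a polysialyltransferase (-1.02), Tshz2, a zinc finger factor (0.998), Sec24d (-0.73), Cntnap3 (-0.83) and Mlip (-0.61), with adjusted p from 0.339 to 0.589. In P301S mice alone they included Ugt8a, an enzyme of myelin lipid synthesis (2.07), Meis1 (1.14), Car10 (0.64), Vps45 (-0.69), Spata13 (1.13), Mir670hg (-1.03) and Ltbp2 (-1.22), with adjusted p from 0.770 to 0.832. Meis1 gave 0.08 and Car10 -0.16 in the marker clusters, so the sign of Car10 turned there.

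Lastly, the response to the transgene was compared between gated nuclei and the other inhibitory classes by the difference of their fold changes within the same mice. No gene was called as different from Vip nuclei (0.0% of 8778) or from Sst nuclei (0.0% of 8781). There 391 and 417 genes (4.45% and 4.75%) were past an unadjusted p of 0.05. The test has limited reach, since 37% of simulated 2-fold differences from Vip nuclei were recovered. From Pvalb nuclei 1 of 9321 genes was called as different (0.0107%, with 4.06% past an unadjusted p of 0.05). It was Agbl1, a tubulin deglutamylase, with a difference of 2.70 (SE 0.440, adjusted p = 0.0154). Agbl1 was low in gated nuclei, at 4.13 to 11.4 CPM in non-transgenic and 6.07 to 21.3 CPM in all P301S mice, whereas Pvalb nuclei held 26.4 to 270 and 9.08 to 66.1 CPM. Without 1 mouse the difference ran from 2.09 to 3.31. It was no longer called in the marker clusters (2.50, adjusted p = 0.798), with doublets left out (1.42, adjusted p = 1) or without non-transgenic replicate 1 (0.479), non-transgenic replicate 3 (0.180) or P301S replicate 3 (0.0532).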

How the data were processed

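Nuclei of mouse brain cortex were sorted by DAPI and captured with 10x Genomics 3' chemistry, 1 library per mouse. The deposited files hold UMI counts per gene and barcode, which the authors made with Cell Ranger 3.1.0 on mm10 with pre-mRNA counted, so introns contribute and levels reflect nuclear RNA. The authors' further steps used Seurat 3.0, and no deposited annotation of the nuclei was used here.

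Barcodes with fewer than 300 or more than 8000 genes (0 and 23) or over 5% mitochondrial UMIs (1556) were removed. The members and gene lists were chosen with earlier results of these data known. Doublets were called by simulated neighbours at 0.8% per 1000 barcodes and kept, with their removal as an alternative. All gated nuclei were clustered (1500 variable genes, 15 components, 15 neighbours, Leiden resolution 0.5; leidenalg 0.10.2, scikit-learn 1.9.0, Python 3.11.15). Counts were summed per mouse and tested in 1 fit over all 11 libraries with edgeR 4.0.16 (R 4.3.3, limma 3.58.1, TMM scaling, filterByExpr, quasi-likelihood test), with DESeq2 1.42.0 as an alternative. The contrasts were P301S minus non-transgenic, each manipulated group minus P301S, and the mean of the 3 P301S groups minus non-transgenic. Standard errors are the log2 fold change over the square root of F. Shares were compared by exact permutation over mice. The fits were tested on simulated data. Summed gated UMIs of 509344 to 1153760 per mouse limit the precision for low genes.

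Genes named in each contrast were the called ones, filled up to 10 by lowest p and then given as values, save those left out as said at the end. Members of the lists and the genes with the highest ratio to the Vip, Sst and Pvalb nuclei of the same mouse were also named. Excitatory comparison nuclei held 3 or more UMIs of Slc17a7. Alternatives were other scaling, filters, covariates, the number in the sample title as a block, gates, thinning and leaving out each mouse. The title number is not the replicate number used here, and mice of both lines share it. The marker clusters, the other clusters and a cut of 30 Adarb2 UMIs were added after seeing the data. Mice of different groups with the same title number did not deviate together (correlation from -0.0704 to 0.0776 over 22 pairs). The labels do not say that a title number marks a litter or batch. Positions are from GENCODE M21. Results for a few genes are not reported here.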

Additional observations from a re-analysis of the deposited data

Results flagged for a closer look

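Among 84 groups of 4 or 7 mice examined for genes named in the report, 4 had 1 mouse far from the others, where chance gives about 1 in 20. Car10, a carbonic anhydrase-related protein, reached 333.6 CPM in non-transgenic replicate 4, above the other 3 non-transgenic mice. Among the 7 P301S mice, Mpp7 reached 118.3 CPM in active IKKb P301S replicate 1, Pde3a reached 52.73 CPM in P301S replicate 1, and Fstl1 reached 118.1 CPM in active IKKb P301S replicate 2. None of these genes was called, and each of the last 3 was named for its low p in the active IKKb comparison, which rests on 2 mice. The difference between gated and Pvalb nuclei for Agbl1, at 2.70 on the log2 scale, was tested and passed, and was lost without any 1 of 3 mice.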

How the results depend on the processing

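Unc5c over all P301S mice was called in 22 of 23 settings, with log2 fold changes from -1.40 to -0.50, and was not called in the other clusters alone. Against 2 genes called in P301S mice, 39 were called with no filter on low counts, 1 with doublets left out, with thinning to 3000 UMIs, in the marker clusters or at 30 Adarb2 UMIs, and 0 with line or age as a covariate, with the stricter gate or in the other clusters. The knockout comparison called 5 and the active IKKb comparison 20 with no filter, and the latter 1 with the stricter gate. Over all P301S mice 61 were called with no filter, 1 with age as a covariate, doublets left out, the stricter gate, thinning or the marker clusters, and 0 in the other clusters. Differences from Vip, Sst and Pvalb nuclei numbered 19, 9 and 16 with no filter, and 0 from Pvalb nuclei without doublets or in the marker clusters. Leaving out 1 mouse gave 0 to 2 genes in P301S, 0 to 0 in knockout, 0 to 1 in active IKKb (1 without P301S replicate 2) and 1 to 15 over all P301S mice (15 without non-transgenic replicate 4), and 0 to 9, 0 to 1 and 0 to 3 from Vip (9 without non-transgenic replicate 4), Sst and Pvalb nuclei (3 without P301S replicate 2). The cause of these moves was not tested.

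Differences in the share, of -0.27, 0.32, 0.28 and -0.10 percentage points for P301S, knockout, active IKKb and all P301S, turned sign in several settings. With all kept nuclei as denominator they were 0.0299 for P301S, -0.0247 for active IKKb and 0.0276 for all P301S. With nuclei thinned before the gate they were 0.207 for P301S, -0.922 for knockout and 0.00794 for all P301S, and in the marker clusters -0.0790 for active IKKb. Leaving out 1 mouse moved them from -0.737 to 0.352, -0.304 to 0.786, -0.346 to 0.744 and -0.281 to 0.165. Car10 turned to -0.16 in P301S mice in the marker clusters. With the number in the sample title as a block, 2, 0, 0 and 2 genes were called, so the block changed no count. Unc5c then gave -1.19 (adjusted p = 0.0483) in P301S and -1.26 (0.00186) over all P301S mice. The marker cluster rule, the 30-UMI cut and the other clusters were chosen after seeing the data.

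Gated nuclei were few, most Lamp5 calls rest on 1 UMI and 468 of 1028 nuclei lie outside the marker clusters. Line, Cre and age partly coincide with the groups.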
